A study of Mus musculus with 10 samples.

Results

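In sorted wound macrophages, 54 protein-coding genes had at least 5 reads in every library of macrophages that had engulfed apoptotic cells (Eff+) and at most 3 reads in total over the 3 libraries of macrophages that had not (Eff-). They were picked by these raw counts from 21927 protein-coding genes among 55414 genes in the table, and symbols starting Krt or Col were left out. The difference between wound Eff+ and wound Eff- libraries is therefore how the genes were chosen, and it is given as a description with no test. Their known roles, assigned after the genes were chosen, spread over striated muscle, skin epithelium, mesenchyme and morphogen signalling, and leukocytes other than macrophages. Other classes were neurons, channels and cytoskeleton, lipid and solute handling, and testis and cilium, and 8 genes, Zfp831 among them, had no class. Reads from transcripts of the 54 genes were few, with a median of 0.52 CPM (read counts scaled per 1000000 effective reads) in wound Eff+ libraries.

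Efferocytosis is the uptake and digestion of apoptotic cells by phagocytes. A macrophage that has eaten carries material of the eaten cell, RNA included, next to its own transcripts. In a skin wound the dying cells can be neutrophils, keratinocytes, fibroblasts, muscle fibres and cells of glands and nerves. The RNA of a sorted population can also hold transcripts from other cells that entered the gate. In bulk libraries, few cells with much of a transcript and many cells with little of it cannot be told apart.

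The wound samples were Eff+ and Eff- macrophages (3 libraries each) sorted from skin of LysMCreER/mTmG mice 3 days after wounding, with tamoxifen given for 6 days to both groups. In these mice an inducible Cre at the lysozyme M locus, active in myeloid cells, turns a membrane-bound tdTomato reporter into GFP. The culture samples were Eff+ and Eff- macrophages (2 libraries each) grown from wild-type bone marrow with GM-CSF for 7 days and given apoptotic fibroblasts for 12 h, per the labels. The column names of the culture Eff- libraries hold the letters NOAC, so their exposure to apoptotic cells is unclear. Whether replicates were separate animals or cultures is not stated, and the p-values measure the spread between these libraries, which may be technical.

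Libraries held 49884278 to 57308823 counts in wound Eff+, 39735437 to 44089595 in wound Eff-, 24707347 and 27261880 in culture Eff+ and 17622740 and 22921618 in culture Eff-. The macrophage genes Adgre1, Csf1r and Cd68 each had at least 6645 counts in every library. The wound libraries numbered 2 stood apart by Lyz2, with 159484 counts in Eff+ and 345046 in Eff-, while the other 4 wound libraries had 160 to 413. The culture libraries numbered 1 stood apart by the number of genes with any read, 35649 in Eff+ and 44836 in Eff-, while those numbered 2 had 19649 in Eff+ and 18171 in Eff-. Among wound counts of 1 to 20, 71.6 to 76.4% were even numbers, against 39.5 to 45% in culture. The cause was not tested, and reads of a gene may not be independent.

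**Figure D1:**
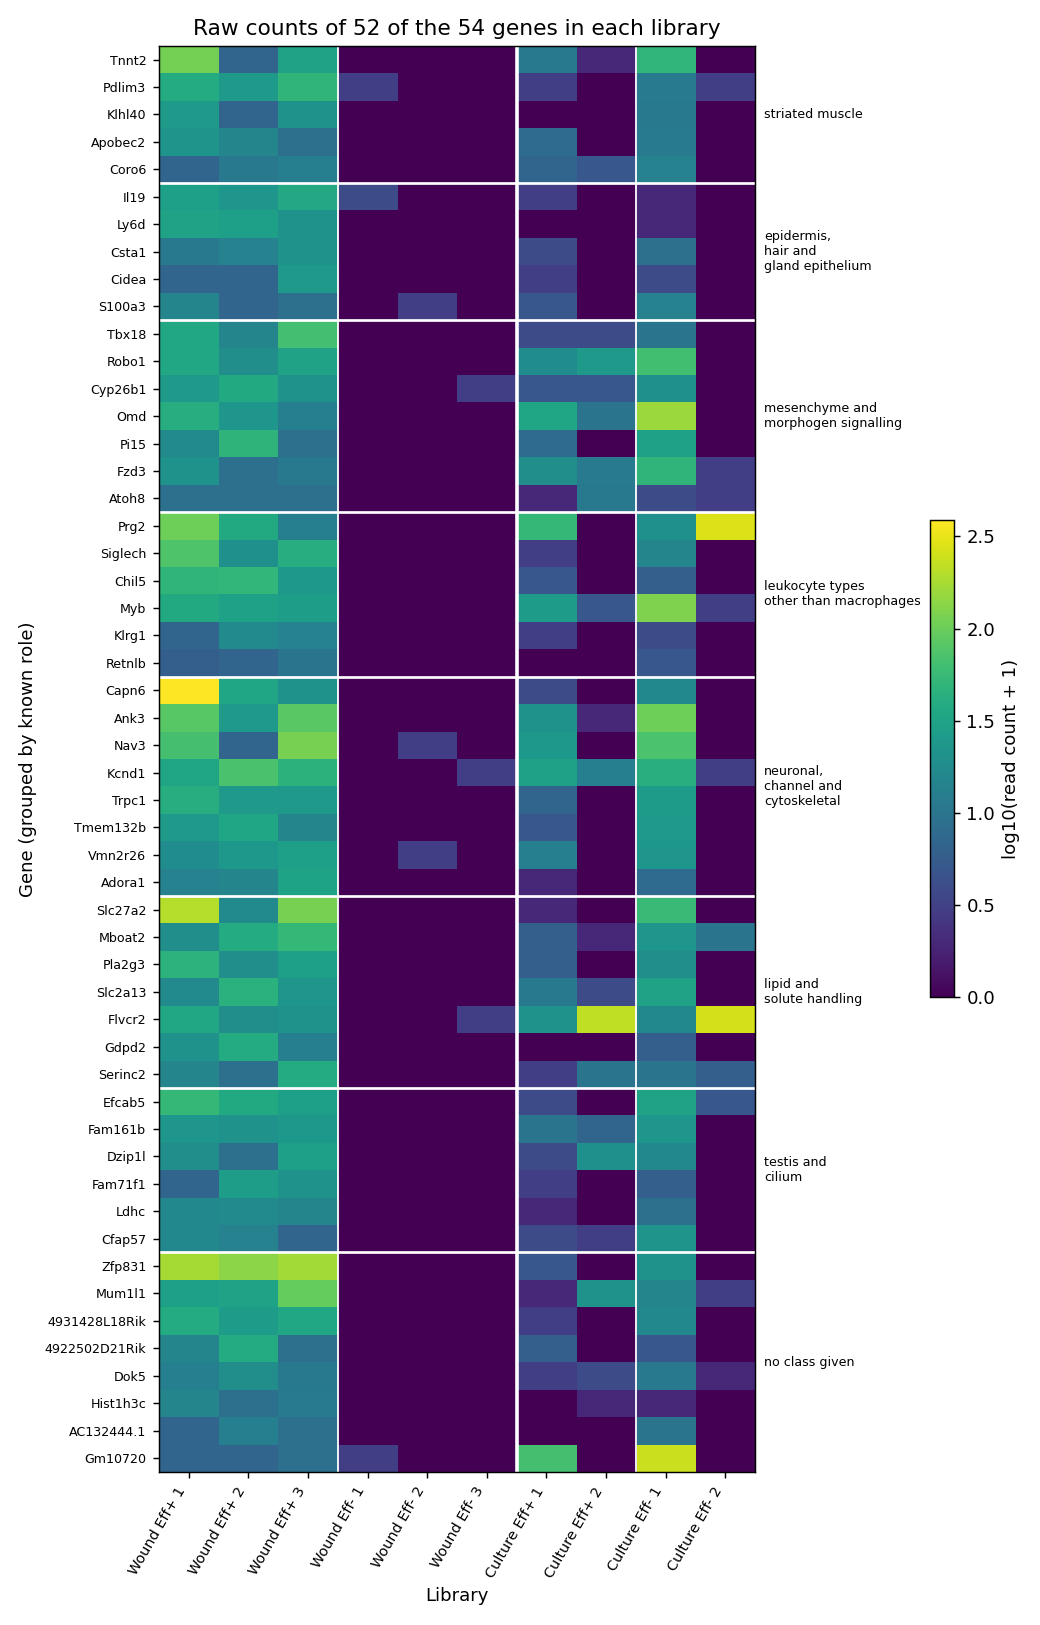
Raw read counts of 52 of the 54 genes (rows, grouped by known role) in the 10 libraries (columns), coloured by log10(count + 1). The 52 genes have reads in each wound Eff+ library, 43 of them have none in any wound Eff- library, and the culture Eff- library numbered 1 has reads of all 52 while the culture Eff- library numbered 2 has reads of 12.

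As a group the genes had 2266, 1260 and 1704 counts in wound Eff+ libraries 1, 2 and 3, and 7, 8 and 6 counts in wound Eff- libraries 1, 2 and 3. That is 51.2, 27 and 36.7 CPM in Eff+ and 0.139, 0.152 and 0.138 CPM in Eff-. Eff- reads were absent for 44 of the genes, 9 had a sum of 2 and 1 had a sum of 3. Of the 10 Eff- values above 0 among 162, 9 were exactly 2. With no Eff- read, a floor of 3 counts over the group corresponds to 0.0205 CPM. The same limits with Eff+ and Eff- exchanged were met by 14 protein-coding genes, among them Gsta3, Nr1h4 and Pdcd1. As a share of the protein-coding genes that were nearly absent from the opposite group, the 54 genes were 0.688% of 7854 and the 14 genes 0.192% of 7305. Without the libraries numbered 2, which leaves 2 per group, the limits were met by 219 genes, and in exchange by 61. The numbers were 179 and 71 without the libraries numbered 1, and 180 and 103 without those numbered 3.

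Single genes sat close to each limit. Il19, which encodes a cytokine of the interleukin 10 family, had 28, 22 and 35 counts in wound Eff+ and 3, 0 and 0 in wound Eff-, the 1 gene at a sum of 3. Another 4 genes were left out at a sum of 4, such as Lepr, the leptin receptor gene, with 114, 19 and 14 counts in Eff+ and 0, 2 and 2 in Eff-. Retnlb had 5, 6 and 9 counts in Eff+ and 0 in each Eff- library, the 1 gene whose lowest Eff+ count was 5. A further 14 genes were left out with a lowest Eff+ count of 4, such as H60c, a ligand of an activating natural killer receptor, with 40, 4 and 14 counts in Eff+ and 0 in each Eff- library. The keratin genes Krt14, Krt5 and Krt17 met the same limits and were left out by their names.

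The gene of highest level was Zfp831 (ENSMUSG00000050600, GRCm39 chromosome 2, 174485327 to 174552625), which encodes a zinc finger protein. It had 170, 136 and 167 counts in wound Eff+ libraries and 0 in each wound Eff- library. At 3.45 ± 0.481 CPM in Eff+ (SD, n = 3) it was 168-fold above the floor of the Eff- group. This fold is a lower limit only if reads are independent. Its 3 Eff+ values lay within 1.32-fold of each other, so no single library carried it. Capn6 (ENSMUSG00000067276, chromosome X, 142585227 to 142610410), a calpain relative that lacks protease activity and binds microtubules, was the most uneven among the 15 genes with at least 20 counts in each Eff+ library. It had 385, 32 and 20 counts in Eff+ and 0 in each Eff- library, and Eff+ library 1 was 20.2-fold above Eff+ library 3 by CPM. Fam161b, a gene of a centrosome and cilium protein, was the most even of those 15, with 22, 20 and 23 counts in Eff+ and 0 in each Eff- library.

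Across the 54 genes the highest of the 3 Eff+ CPM values was a median of 2.5-fold above the lowest. For the other 11565 protein-coding genes with at least 5 counts in each Eff+ library, most of which had far more reads, that median was 1.56. Eff+ library 1 was the highest for 25 genes, library 2 for 13 and library 3 for 16, which is 46.3, 24.1 and 29.6% of the set. Among the other 11565 genes those shares were 39.1, 28.7 and 32.1%. For 21 genes the Eff+ libraries lay within 2-fold and for 8 they differed by over 5-fold.

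**Figure D2:**
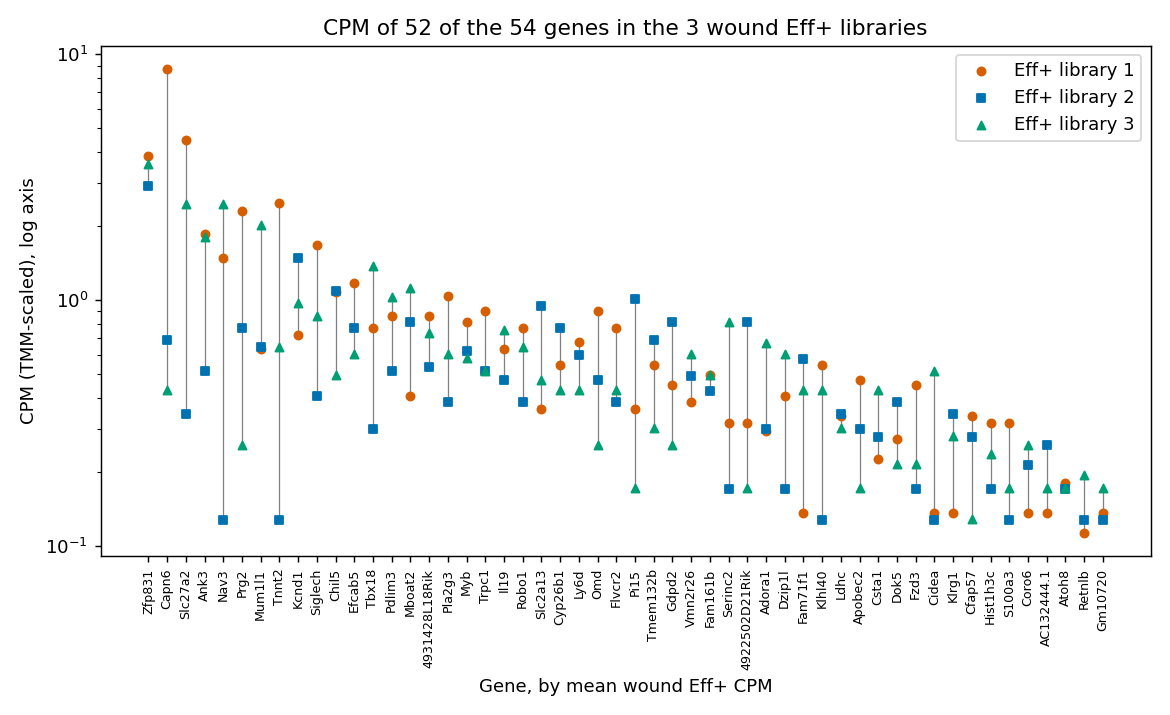
CPM on a log axis of 52 of the 54 genes (ordered by mean) in wound Eff+ libraries 1, 2 and 3, joined by a line. Zfp831 is even over the libraries, whereas Capn6, Nav3 and Tnnt2 differ by 20.2-, 19.1- and 19.3-fold between their highest and lowest library.

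In the promoter sequences at hand, the number of CG dinucleotides and the presence of TATAAA varied from gene to gene. Features other than these and GC content were not examined. RefSeq (GRCm38.p6) gave the 250 bases before the start of 33 of the 54 genes. The word TATAAA, searched on both strands, was in 4 of the 33 (12.1%), against 12.4% of 17486 protein-coding promoters of the same length. The median number of CG dinucleotides was 6 in the 33 and 10 in all promoters, and 42.4% of the 33 had at most 5, against 37.9% of all. The median GC content was 55.6% in the 33 and 55.2% in all. The next 3 sequences show the spread: Chil5, with no CG, Myb, with the most (40), and Apobec2, with a TATAAA. Capitals mark CG dinucleotides and TATAAA.
Chil5 (chr3:106032896-106033145, minus strand): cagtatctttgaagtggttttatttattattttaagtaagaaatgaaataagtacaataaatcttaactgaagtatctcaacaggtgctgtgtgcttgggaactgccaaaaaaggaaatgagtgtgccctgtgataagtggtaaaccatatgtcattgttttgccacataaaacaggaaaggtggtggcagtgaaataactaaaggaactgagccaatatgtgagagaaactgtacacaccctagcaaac
Myb (chr10:21160985-21161234, minus strand): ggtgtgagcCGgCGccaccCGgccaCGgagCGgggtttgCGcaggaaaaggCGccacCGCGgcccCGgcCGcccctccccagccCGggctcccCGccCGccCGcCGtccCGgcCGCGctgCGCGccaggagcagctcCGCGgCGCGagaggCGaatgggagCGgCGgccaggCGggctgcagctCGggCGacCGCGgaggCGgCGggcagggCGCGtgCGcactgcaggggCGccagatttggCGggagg
Apobec2 (chr17:48432729-48432978, minus strand): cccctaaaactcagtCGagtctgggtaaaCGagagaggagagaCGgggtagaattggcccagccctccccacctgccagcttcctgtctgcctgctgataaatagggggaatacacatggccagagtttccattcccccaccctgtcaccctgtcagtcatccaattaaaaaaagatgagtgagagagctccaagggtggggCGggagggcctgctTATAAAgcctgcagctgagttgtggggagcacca

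Striated muscle genes made up 5 of the 54. Tnnt2 (ENSMUSG00000026414, chromosome 1, 135764092 to 135779998), the troponin T of heart and embryonic skeletal muscle, had 110, 6 and 30 counts in wound Eff+ and 0 in each wound Eff- library. Eff+ library 1 was high and library 2 low for it. Pdlim3, a Z-disc protein gene, had 38, 24 and 48 counts in Eff+ and 2, 0 and 0 in Eff-. Klhl40, which stabilises thin filaments, had 24, 6 and 20 in Eff+, and Apobec2, a muscle member of the cytidine deaminase family, had 21, 14 and 8. Coro6, a coronin, had 6, 10 and 12, and these last 3 had no Eff- read. Of a fixed list of 69 skeletal muscle genes, Tnnt2 was the 1 member of the set, and of 27 others that were tested Myl1 (log2 fold change 2.97, SE 0.762, edgeR adjusted p = 0.046) and Mylpf (1.89, SE 0.307, adjusted p = 0.013), both myosin light chain genes, rose and none fell. That is 7.41% of the 27, against 7.39% of all genes tested that were called higher in Eff+ and 3.79% called lower. Myl1 had 68 Eff- counts in total (0.0794 to 0.837 CPM), and it was kept for testing only with its Eff+ reads. The median log2 fold change was 1.36 over these 27 genes, against -0.03 over all 14908 tested. The summed list was at 114 to 150 CPM in Eff+ and 44.8 to 74.5 CPM in Eff-. Ttn, the giant sarcomere protein gene, was nearly absent from both groups, with 4, 2 and 2 counts in Eff+ and 6, 0 and 10 in Eff-.

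Genes placed with the epithelium of epidermis, hair and glands were 6 of the 54. Ly6d (ENSMUSG00000034634, chromosome 15, 74633905 to 74635469), a surface protein gene of keratinocytes, had 30, 28 and 20 counts in wound Eff+ and 0 in each wound Eff- library. Cidea, a lipid droplet protein gene of brown fat and sebaceous glands, had 6, 6 and 24 in Eff+ and 0 in Eff-, with library 3 high. S100a3, a calcium-binding protein gene of the hair cuticle, had 14, 6 and 8 in Eff+ and 0, 2 and 0 in Eff-. Csta1, of the stefin A cluster of protease inhibitors, had 10, 13 and 20 in Eff+ and 0 in Eff-, and Il19, given above, was also of this class. The place of Csta1 and Il19 in this class is uncertain, and Stfa2 and Stfa2l1, also of the stefin A cluster, are on the neutrophil list.

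Of the fixed keratinocyte lists, 2 of 20 basal genes and 17 of 61 suprabasal and cornified genes had no read in any wound library. The epithelial adhesion gene Epcam also had 0 counts in all 6 wound libraries. Of 61 suprabasal and cornified keratinocyte genes none was in the set, though Krt17 met its limits and was left out by name. Among the 61, 35 had no Eff- read and 17 were tested. Of these 17, Perp, a desmosome gene, rose (log2 fold change 4.50, SE 1.04, edgeR adjusted p = 0.034), as did Asprv1 and Stfa1, which are also neutrophil genes or their close relatives. Perp had 16 Eff- counts in total (0 to 0.199 CPM), and it was kept for testing only through its Eff+ reads. The 3 risers were 17.6% of the 17, against 7.39% of all genes tested, and the median of the 17 was 0.05. Of 9 tested genes of the basal list outside the set (median 2.38), 3 rose (Krt14, Krt5 and Lamb3) and 1 fell (Itga6). That is 33.3% higher and 11.1% lower, against 7.39% and 3.79% of all genes tested. Krt14 and Krt5 met the count limits of the set and were left out by name, so the limits fixed their rise. The median of 2.38 and the 33.3% include both genes, so neither value is independent of those limits. Only Lamb3 rose outside those limits. The summed basal list was at 115 to 152 CPM in Eff+ and 38.1 to 59.7 CPM in Eff-, and Krt14 and Krt5 were at 0 in each Eff- library. The part of the keratinocytes in the counts of the 6 genes was not tested.

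Genes of mesenchyme and of morphogen signalling were 8 of the 54. Tbx18, a transcription factor gene of mesenchyme and pericytes, had 34, 14 and 64 counts in wound Eff+, and Robo1, a receptor for Slit guidance proteins, had 34, 18 and 30, both with no Eff- read. Cyp26b1, which breaks down retinoic acid, had 24, 36 and 20 in Eff+ and 0, 0 and 2 in Eff-. Omd, a leucine-rich proteoglycan gene of bone, had 40, 22 and 12 in Eff+, and Pi15, a secreted peptidase inhibitor gene, had 16, 47 and 8. These 2 were high in different libraries, Omd in library 1 and Pi15 in library 2, and neither had an Eff- read. Fzd3, a Wnt receptor gene, had 20, 8 and 10 in Eff+ and Atoh8, a basic helix-loop-helix factor gene, had 8 in each, with no Eff- read for either.

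No gene of the fixed list of 44 fibroblast and matrix genes was in the set, and 43 of them had reads in wound Eff- libraries. That list summed to 913 to 1660 CPM in wound Eff+ and 353 to 923 CPM in wound Eff-. Of its 39 tested genes (median 1.19) Acta2 (log2 fold change 2.27, SE 0.261, edgeR adjusted p = 0.0097) and Pi16 (1.47, SE 0.232, adjusted p = 0.013) rose and none fell, a share of 5.13%, which is below the 7.39% of all genes. Col1a1, the chief collagen gene of fibroblasts, had 6787, 21921 and 41204 counts in Eff+ and 3056, 18377 and 9182 in Eff-, so the groups overlapped.

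Genes placed with leukocyte types other than macrophages were 6 of the 54, and the place of Retnlb in this class is uncertain. Prg2 (ENSMUSG00000027073, chromosome 2, 84810805 to 84813976), the major basic protein of eosinophil granules, had 102, 36 and 12 counts in wound Eff+ and 0 in each wound Eff- library. Per kilobase of exon it had the highest wound Eff+ level of the set, at 1.33 CPM per kilobase, against a median of 0.156. Siglech (ENSMUSG00000051504, chromosome 7, 55417926 to 55428673), a sialic acid-binding lectin gene of plasmacytoid dendritic cells, had 74, 19 and 40 in Eff+ and 0 in Eff-. Both were highest in Eff+ library 1. Chil5, a chitinase-like protein gene, had 48, 51 and 23 in Eff+, and Myb, a transcription factor gene of blood progenitors, had 36, 29 and 27, with no Eff- read for either. Klrg1, an inhibitory receptor gene of natural killer and T cells, had 6, 16 and 13 in Eff+, and Retnlb, a resistin-like protein gene, was named above at the lower limit.

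Lists of leukocyte markers differed from each other. Siglech was the 1 gene of a fixed list of 15 Langerhans and dendritic cell genes in the set, and of 12 others tested (median -0.48) none rose and 1 fell, the lectin gene Clec10a (log2 fold change -1.17, SE 0.195, edgeR adjusted p = 0.014). None of 29 T and natural killer cell genes was in the set, 13 were tested (median 0.09) and none was called, and Cd3e had 0 counts in all 6 wound libraries. The neutrophil list had no gene in the set, and the lowest sum of Eff- counts among its 31 genes was 17. Of its 29 tested genes (median 2.53) 23 rose and none fell, and it summed to 40400 to 53400 CPM in wound Eff+ and 5900 to 10800 CPM in wound Eff-. The mast cell and basophil list summed to 5450 to 7330 CPM in Eff+ and 524 to 1560 CPM in Eff-. Nearly all of that sum was Hdc, which is also on the neutrophil list. Hdc alone was at 5420 to 7320 CPM in Eff+ and 522 to 1480 CPM in Eff-. It was the 1 gene called of 10 tested. Of 20 macrophage identity genes tested (median -0.89), 1 rose (5%, against 7.39% of all genes) and 7 fell (35%, against 3.79%). The rises were 79.3% of the tested neutrophil genes and 10% of the tested mast cell and basophil genes. The fall of Clec10a was 8.33% of the tested Langerhans and dendritic cell genes. The 10 other lists held 2 genes of the set, Cidea and S100a3, and 95 other tested genes, counted once per list, of which 5 rose (5.26%, against 7.39% of all genes) and 2 fell (2.11%, against 3.79%). Their medians lay between -0.45 and 1.82. Whether neutrophil material in the Eff+ libraries contributed to the counts of the 54 genes was not tested.

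Genes of neurons, ion channels and the cytoskeleton were 8 of the 54. Ank3 (ENSMUSG00000069601, chromosome 10, 69234603 to 69863268), which encodes the membrane scaffold ankyrin G, had 82, 24 and 84 counts in wound Eff+ and 0 in each wound Eff- library. Nav3, a neuron navigator gene, had 66, 6 and 114 in Eff+ and 0, 2 and 0 in Eff-, with Eff+ library 2 low. Kcnd1, a voltage-gated potassium channel gene, had 32, 69 and 45 in Eff+ and 0, 0 and 2 in Eff-. Trpc1, a cation channel gene, had 40, 24 and 24 in Eff+, and Tmem132b, a transmembrane protein gene, had 24, 32 and 14. Adora1, an adenosine receptor gene, had 13, 14 and 31 in Eff+, and none of these 3 had an Eff- read. Vmn2r26, a vomeronasal receptor gene, had 17, 23 and 28 in Eff+ and 0, 2 and 0 in Eff-, and Capn6 was given above.

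Genes of lipid and solute handling were 7 of the 54. Slc27a2 (ENSMUSG00000027359, chromosome 2, 126394327 to 126430163), a very long-chain acyl-CoA synthetase gene of liver and kidney, had 199, 16 and 114 counts in wound Eff+ and 0 in each wound Eff- library. It was at 2.43 ± 2.08 CPM in Eff+ (SD, n = 3), and libraries 1 and 3 were far above library 2. Mboat2, a lysophospholipid acyltransferase gene, had 18, 38 and 52 in Eff+, and Pla2g3, a secreted phospholipase gene, had 46, 18 and 28, with no Eff- read. Slc2a13, an inositol transporter gene, had 16, 44 and 22 in Eff+, and Gdpd2, a glycerophosphodiesterase gene, had 20, 38 and 12, both highest in library 2 and with no Eff- read. Serinc2 had 14, 8 and 38 in Eff+ and none in Eff-. Flvcr2, a membrane transporter gene, had 34, 18 and 20 in Eff+ and 0, 0 and 2 in Eff-.

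Genes known from testis or from cilia were 6 of the 54, and none of them had an Eff- read. Ldhc, the lactate dehydrogenase of sperm, had 15, 16 and 14 counts in wound Eff+ libraries, and Fam71f1 had 6, 27 and 20. Efcab5 had 52, 36 and 28, Dzip1l, a gene of the ciliary transition zone, had 18, 8 and 28, and Cfap57, a cilium and flagellum protein gene, had 15, 13 and 6. Fam161b was given above. Ldhc was among the most even genes, with its highest Eff+ CPM 1.14-fold above its lowest.

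The remaining 8 genes were given no class. Besides Zfp831 they included Mum1l1, with 28, 30 and 94 counts in wound Eff+, Dok5, a docking protein gene, with 12, 18 and 10, and Hist1h3c, a histone H3 gene, with 14, 8 and 11. The unnamed models 4931428L18Rik, 4922502D21Rik and AC132444.1 had 38, 25 and 34, 14, 38 and 8, and 6, 12 and 8 counts in Eff+. None of these 6 had an Eff- read, whereas Gm10720 had 6, 6 and 8 in Eff+ and 2, 0 and 0 in Eff-. Reads of 11 of the 54 genes are uncertain, since over 5% of their 50-base words also occur in other genes; 47.0% of the 50-base words of Hist1h3c and 88.3% of those of Gm10720 are shared with other genes.

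**Figure D3:**
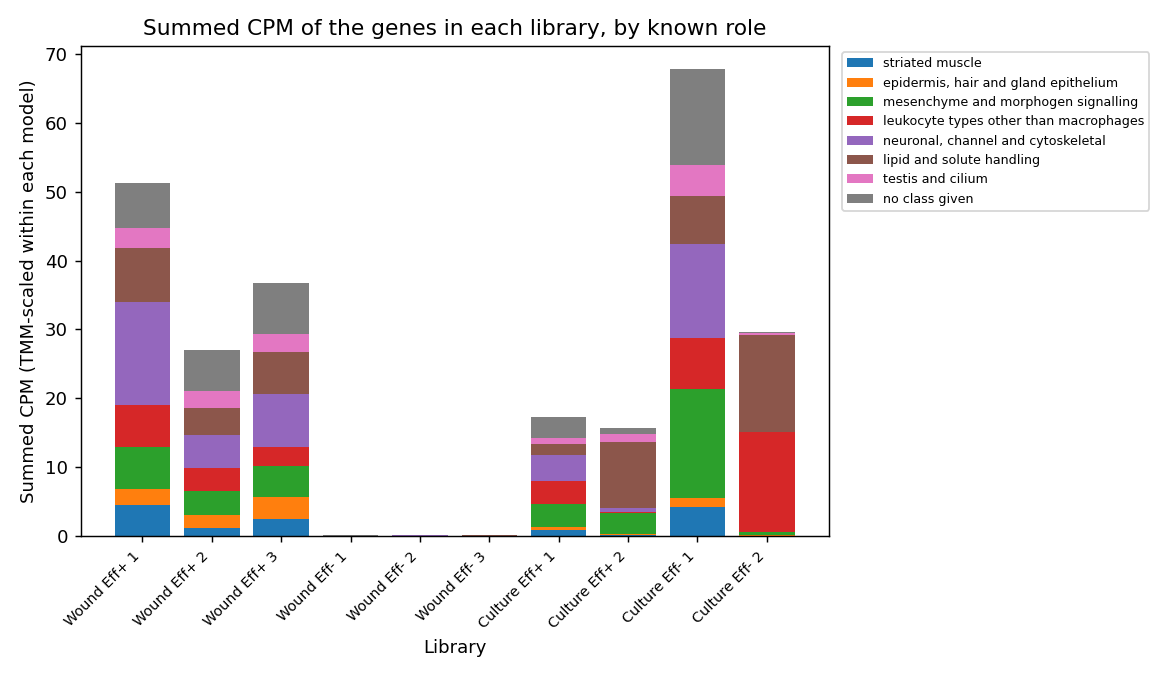
Summed CPM of the 54 genes in each library, stacked by known role, with CPM scaled within wound and within culture separately. The wound Eff+ bars reach 51.2, 27 and 36.7 CPM with every class present, the wound Eff- bars stay under 0.16 CPM, and the culture bars reach 17.3 and 15.8 CPM in Eff+ and 67.7 and 29.7 CPM in Eff-.

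In culture, which the choice of genes did not use, reads of the genes were unevenly spread over the libraries. The set had 451 and 381 counts in culture Eff+ libraries 1 and 2, and 1514 and 574 in culture Eff- libraries 1 and 2. Without Prg2 and Flvcr2 these sums were 379 and 164 in Eff+ and 1480 and 36 in Eff-, so those 2 genes held most reads of the set in both libraries numbered 2. All 54 had at least 1 read in some culture library. Yet the libraries numbered 1 had reads of 48 genes in Eff+ and 54 in Eff-, and those numbered 2 had reads of 23 genes in Eff+ and 14 in Eff-. Over the libraries numbered 2 alone, 26 genes had a read and 28 had none.

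Reads in the culture libraries numbered 1 were spread widely over genes with few wound reads. Of the 7800 other protein-coding genes nearly absent from wound Eff- libraries, 69.9% had reads in culture Eff+ library 1 and 87.0% in culture Eff- library 1. In the libraries numbered 2 these shares were 10.7% in Eff+ and 8.37% in Eff-. The 54 genes had shares of 88.9% and 100% in culture Eff+ 1 and Eff- 1, and of 42.6% and 25.9% in culture Eff+ 2 and Eff- 2. In culture Eff- 1 the count of a gene followed its summed exon length, with Spearman's rho 0.68 over the 54 genes and 0.76 over the 7800, which share that library and its depth. In culture Eff- 2 rho was 0.12 over the 54 and 0.14 over the 7800. These correlations are across genes, which are not independent replicates.

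**Figure D4:**
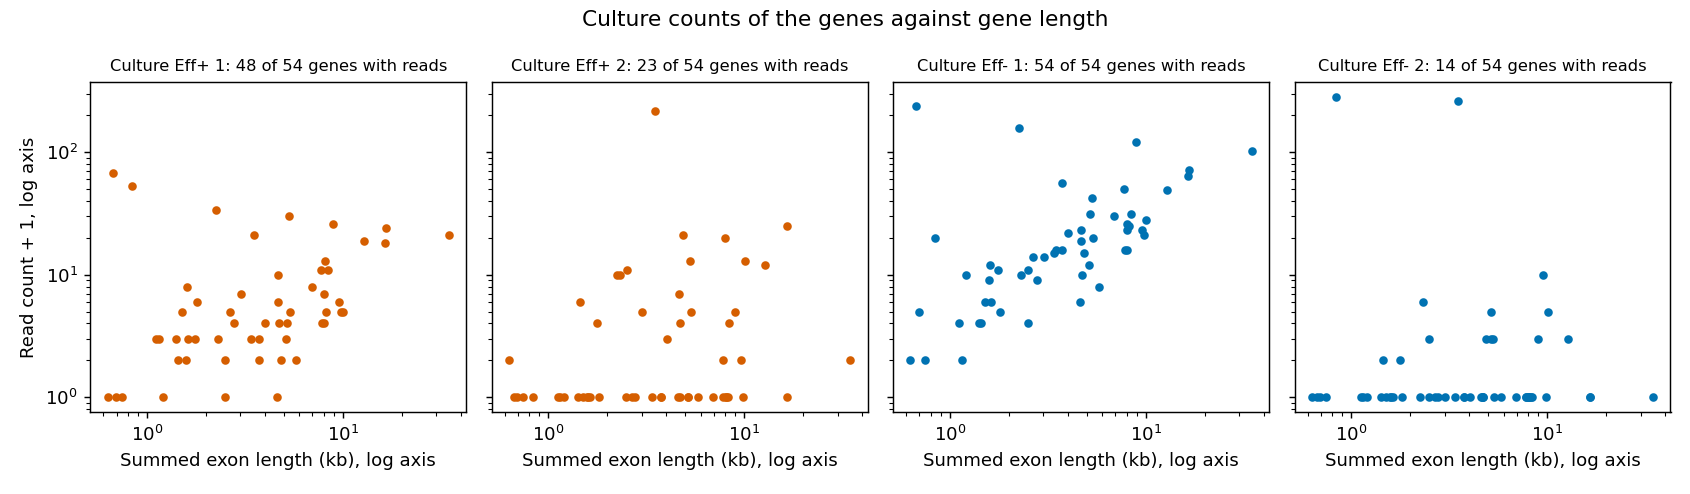
Read count + 1 of each gene against its summed exon length in kilobases (both log axes) in the 4 culture libraries. In culture Eff- 1 all 54 genes have reads and counts follow length (rho 0.68), while in culture Eff+ 2 and Eff- 2 most genes lie on the bottom line, at 0 reads.

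In pair 1, CPM was lower in Eff+ than in Eff- for 50 of the 54 genes, which is 92.6%. The same held for 93.4% of the 6923 other genes nearly absent from wound Eff- with reads in pair 1, so that share is not particular to the 54. In pair 2, 21 genes were higher and 5 lower in Eff+ than in Eff-, and the other 28 had no read in either library. Higher in Eff+ were thus 80.8% of the 26 set genes with reads in pair 2, and 56.8% of 1111 other such genes nearly absent from wound Eff-. On the log2(CPM + 0.5) scale, 23 of the 26 genes with reads in pair 2 had differences of opposite sign in the pairs, a pair being the Eff+ and Eff- library of one number. That is 88.5%, against 54.5% of the 1111 other genes, and the difference between these shares was not tested.

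The edgeR test of culture Eff+ against Eff- called 0 of 14867 genes (0% called), with 115 (0.774%) at an unadjusted p under 0.05. DESeq2 called 2 genes, neither being among the 54. Of the 54 genes 14 had enough reads to be tested, none had an unadjusted p under 0.05, and 12 had negative log2 fold changes (median -1.10, against -0.05 over all genes tested). The 3 of smallest p were Prg2 (log2 fold change -2.93, SE 2.20), Myb (-2.28, SE 1.89) and Ank3 (-2.48, SE 2.48), each with an edgeR adjusted p of 1.0. With 2 libraries per group and SEs of this size, these p-values do not show that the levels were alike.

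Unnamed models aside, the genes of highest level in culture fell in several of the role classes. Flvcr2 had 20 and 217 counts in culture Eff+ and 15 and 259 in culture Eff-, high in both libraries numbered 2. Prg2 had 52 and 0 in Eff+ and 19 and 279 in Eff-, and the 2 Eff- libraries differed by over 10 times. Omd, with 33 and 9 counts in Eff+ and 156 and 0 in Eff-, Myb, with 25 and 4 against 121 and 2, and Ank3, with 20 and 1 against 102 and 0, were highest in culture Eff- 1. Robo1 had 17 and 24 in Eff+ and 63 and 0 in Eff-. In the libraries numbered 2, 9 of the 54 genes had at least 10 counts in either, among them Prg2, Flvcr2, Robo1, Mum1l1, Kcnd1, Atoh8, Fzd3 and Dzip1l. Mum1l1 had 20 counts in culture Eff+ 2 and 2 in culture Eff- 2, Dzip1l 19 and 0, and Atoh8 10 and 2.

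Most genes of the set, not only those of skin and muscle, were near 0 in the culture libraries numbered 2. The median count of the set was 0 in both, with 31 genes at 0 in culture Eff+ 2 and 40 in culture Eff- 2. Ly6d had 0 and 0 counts in culture Eff+ and 1 and 0 in culture Eff-. Siglech had 2 and 0 in Eff+ and 14 and 0 in Eff-, Tnnt2 10 and 1 against 49 and 0, and Capn6 3 and 0 against 15 and 0. Zfp831, the highest in wound Eff+, had 4 and 0 in culture Eff+ and 20 and 0 in culture Eff-. The 5 muscle genes together had 5 counts in culture Eff+ 2 and 2 in culture Eff- 2, and the 6 epithelial genes 5 and 1.

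For the wound libraries the edgeR test was fitted across all genes, and 11.2% of 14908 genes were called, 7.39% as higher and 3.79% as lower in Eff+, with 29.9% at an unadjusted p under 0.05. Of the 54 genes 30 had enough reads to be tested and 26 were called, all higher in Eff+, which the choice of the genes fixes. Without Eff+ library 2 that test called 0 genes, and the calls of list genes named above ended with it. Without Eff- library 2 it called 189 genes, 14 of them neutrophil list genes and none of them muscle list genes. The genes lay on 19 chromosomes and 1 unplaced scaffold, with at most 6 on one (chromosome 6). Chromosome X held 5 (9.26%, against 4.24% of protein-coding genes), and distances along chromosomes were not examined. Exons of 13 genes overlapped those of another gene, by over 20% of their length for Tbx18, Adora1 and Klhl40. The gene with most wound Eff+ reads inside each of these 3 had 3, 27 and 0 counts in total.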

How the data were processed

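The authors deposited raw read counts per gene for 6 wound and 4 culture libraries. Wound reads were counted with featureCounts 1.6.0 at default settings, with no strand option, against Ensembl release 106 on GRCm39, per the file headers. Trimming used Trimmomatic 0.39, per the submitters' processing notes. Neither the aligner nor the counting command of the culture table is given in these sources. The culture table has 4 further columns that match no sample and were not used.

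GENCODE vM21 named 52133 of the 55414 genes and gave their type, and 3 genes that met the counts had no entry there. Gene coordinates are GRCm39, and promoters are RefSeq's on GRCm38.p6. Wound and culture libraries were fitted apart in R 4.3.3 with edgeR 4.0.16 (TMM scaling, filterByExpr, quasi-likelihood test, Benjamini-Hochberg adjustment, calls under 0.05), and CPM uses the TMM-scaled sizes. DESeq2 1.42.0 was an alternative, run on the genes that filterByExpr kept. SE is the log2 fold change over the square root of F. A fold against 0 reads uses a floor of 3 counts over the group.

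The gene rule and the 18 marker lists (473 genes) were chosen with earlier results of these data known, and the role classes were assigned after the genes were known. Lists hold 5 of the 54 genes. The naming rule picked the 12 of highest wound Eff+ CPM, list members, the 6 highest and the 3 of smallest p in culture, the most and least even, and genes at the limits. Most others of the 54 are also named, and 2 of the 54 are not reported by name here. The scripts were first tried on simulated data. No 2 replicates agreed within sampling noise (chi-square per degree of freedom 78.8 to 460).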

Additional observations from a re-analysis of the deposited data

How the results depend on the processing

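The size of the set depended on its limits. It was 92 genes with up to 10 Eff- counts, 33 and 15 genes with at least 10 or 20 counts in each Eff+ library, 104 with all gene types, 14 with Eff+ and Eff- exchanged and 219 without the libraries numbered 2 in either group, an alternative chosen after seeing the data. Leaving out 1 library gave 82 to 128 genes, which follows from requiring fewer libraries. Counts scaled to 1 library size left 53 of the 54. With at least 1 culture read there were 54 genes, 49 to 54 without 1 culture library and 26 without both libraries numbered 1, chosen after seeing the data.

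In culture, edgeR called 0 genes, 2 with no filter on low counts and 48 with the replicate number as a block (9 higher in Eff+); DESeq2 called 2. Leaving out 1 library gave 0 to 27 calls, in fits that give the lone library the spread of its opposite group. Log2 fold changes without 1 library ran from -10.4 to 0.51 for Prg2 (positive without Eff- 2), from -3.98 to 2.42 for Myb and from -5.57 to 6.26 for Ank3 (both positive without Eff- 1), against negative values with all 4 libraries. The cause was not tested. In wounds 1666 genes were called (66.1% higher), against 3135 with DESeq2, 3373 with library totals only (21.2% higher, the median of all genes moving to -0.42) and 2985 with the replicate block. Leaving out 1 wound library gave 0 to 1347 calls, and 0 without both libraries numbered 2. Same-numbered Eff+ and Eff- libraries deviated together with correlations of 0.247, -0.011 and 0.133 in wounds. The number was therefore used as a block only in an alternative fit. Yet Lyz2 was high in both wound libraries numbered 2, and whether libraries of one number share a batch was not tested. In culture the correlation was 0.74, and no label pairs those libraries. With 2 libraries per group it is 1 value for both pairs, since the deviations of the 2 libraries mirror each other. At this depth a floor of 3 counts over the 3 Eff- libraries is 0.0205 CPM. It is an upper limit only if reads are independent, which the mostly even wound counts leave uncertain.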
